A study of Mus musculus with 15 samples.

Results

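The unfolded protein response (UPR) genes described here are 10 of the 35976 genes in a table of counts from sorted nuclei of the mouse ventral tegmental area: Atf6, Atf6b, Ern1, Eif2ak3, Xbp1, Atf4, Ddit3, Hspa5, Calr and Herpud1. They were found in the table by symbol, and all 10 passed the filter on low counts in every comparison. The list of symbols was drawn up with results of these libraries in view, and no source used here records which values were considered. The symbols can thus have been selected on any measure of the 4 groups, and the fold changes and p-values below describe the listed genes and are not independent support for a pattern among them. The p-values come from fits to all genes tested, and log2 FC is the fitted log2 fold change.

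The mice were heterozygous male DAT-Cre mice (B6.SJL-Slc6a3tm1.1(cre)Bkmm/J), aged 8 to 12 weeks, in which Cre is made by cells that express the dopamine transporter. Every animal of every group, controls included, had received the Cre-dependent virus AAV5-DIO-KASH-HA in the ventral tegmental area and had learned to press a lever for food. HA-positive nuclei (dopaminergic) were collected from mice killed after food training (n = 4 samples), from mice that went on to take cocaine for 5 daily sessions at 0.3 mg/kg per infusion and 10 sessions at 1.0 mg/kg per infusion (maintenance, n = 3), and from mice that were then kept for 21 days without cocaine (abstinence, n = 4). HA-negative nuclei (non-dopaminergic) came from food-trained mice alone (n = 4), and each sample held tissue of 2 mice. Samples of mice given surgery and saline are not analysed here, so surgery, elapsed time and cocaine cannot be told apart when either later stage is set against food training. Abstinence and maintenance mice shared the surgery and the cocaine sessions and differed by the 21 days.

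The UPR is the set of signals by which a cell adjusts the folding capacity of its endoplasmic reticulum (ER). Membrane proteins of the ER sense unfolded protein: ATF6 and ATF6B are cut and release transcription factors, IRE1 (Ern1) splices the Xbp1 messenger RNA, and PERK (Eif2ak3) phosphorylates the translation factor eIF2, which favours translation of ATF4. These factors act on genes for ER chaperones such as BiP (Hspa5) and calreticulin (Calr), on genes for degradation of misfolded ER proteins such as Herpud1, and, under lasting stress, on Ddit3, which encodes the factor CHOP. Splicing, cutting, phosphorylation and translation are not seen in a table of counts per gene, and nuclear RNA need not follow messenger RNA in the cytoplasm.

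Hspa5, Herpud1 and Calr are the target genes among the 10, and the 250 bases before their RefSeq start (GRCm38.p6) are shown because 3 of the 4 letter patterns searched occur in them. Each is written 5′ to 3′ on the strand of the gene, with the matches in capitals. Hspa5 is at chr2:34771840-34772089 on the plus strand, Herpud1 at chr8:94386179-94386428 on the plus strand and Calr at chr8:84846932-84847181 on the minus strand.
Hspa5: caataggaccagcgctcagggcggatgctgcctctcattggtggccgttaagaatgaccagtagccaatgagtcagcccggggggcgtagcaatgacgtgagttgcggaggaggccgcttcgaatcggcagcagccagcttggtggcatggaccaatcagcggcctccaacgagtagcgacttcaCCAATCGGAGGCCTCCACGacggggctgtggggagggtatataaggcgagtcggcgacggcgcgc
Herpud1: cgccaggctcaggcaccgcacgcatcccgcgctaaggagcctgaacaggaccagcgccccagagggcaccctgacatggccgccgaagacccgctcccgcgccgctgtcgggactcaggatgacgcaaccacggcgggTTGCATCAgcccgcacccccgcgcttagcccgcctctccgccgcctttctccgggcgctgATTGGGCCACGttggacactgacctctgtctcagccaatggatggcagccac
Calr: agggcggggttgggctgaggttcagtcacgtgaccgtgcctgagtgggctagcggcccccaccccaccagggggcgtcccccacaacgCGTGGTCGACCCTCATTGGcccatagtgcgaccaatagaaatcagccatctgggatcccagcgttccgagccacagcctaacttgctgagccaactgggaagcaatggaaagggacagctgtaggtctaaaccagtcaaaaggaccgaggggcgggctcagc

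The ER stress response element was searched on both strands, like the other patterns, as CCAAT and CCACG with 9 bases of any kind between them. It occurred in 37 of 32851 mouse promoter windows of this length (0.1126%), among them those of Hspa5, from 65 to 47 bases before the start, and Calr, on the opposite strand from 162 to 144 bases before it. The related element (ERSE-II), which is ATTGG, any base and CCACG, occurred in 10 windows (0.03044%), among them that of Herpud1 from 52 to 42 bases before the start. The C/EBP-ATF response element TGATGNAA, which ATF4 and CHOP complexes are known to bind, occurred in 1134 windows (3.452%), and Herpud1 held it on the opposite strand from 112 to 105 bases before the start. The UPR element TGACGTGG occurred in 185 windows (0.5631%) and in 0 of the 9 members with a sequence, which leaves out Atf6. A match of letters is a description and does not show that a factor binds there.

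The genes were located in the GENCODE M21 annotation (GRCm38). Atf6 is at chr1:170704674-170867771, Atf6b at chr17:34647146-34655074, Ern1 at chr11:106394650-106487852, Eif2ak3 at chr6:70844515-70905245 and Xbp1 at chr11:5520659-5525893. Atf4 is at chr15:80255184-80257541, Ddit3 at chr10:127290774-127296288, Hspa5 at chr2:34771970-34777547, Herpud1 at chr8:94386438-94395377 and Calr at chr8:84841850-84846934. The RefSeq starts of Hspa5 and Calr lie inside the GENCODE genes, so the windows shown for them overlap that annotation, for Calr only at its edge. Ddit3 shared 68 of its 1713 exonic bases with Mars on the opposite strand, and Eif2ak3 shared 485 of 6026 with Gm43292 on the opposite strand. Whether the counting used strand is not given in the sources used here, so a small part of the counts of these genes may belong to their neighbours.

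The libraries held between 25813697 and 59046618 counts, and no pair of the 15 libraries held identical values. The sort was borne out by its markers: 11 dopamine neuron genes summed to between 5800 and 12418 CPM (counts scaled to a common library size) in the dopaminergic libraries and to between 354 and 538 in the non-dopaminergic ones. The labels call both populations neurons, but 10 oligodendrocyte markers summed to 9562 to 23213 CPM in the non-dopaminergic libraries, against 1155 to 2830 in the dopaminergic ones. Astrocyte and microglia markers were also higher there (1581 to 3369 and 1583 to 3097 CPM, against 629 to 1065 and 477 to 1020), so this population is one of mixed nuclei that includes glia. Libraries also differed in how counts depended on the GC content of transcripts: the slope of log2 CPM on GC percent was -0.038 to -0.0226 in the 3 maintenance libraries and -0.0247 in non-dopaminergic replicate 2, and ran from -0.0166 to 0.0325 in the other 11.

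Per kilobase of transcript, Hspa5 had the highest mean level of the 10 genes in each of the 4 groups, and Ern1 had the lowest. By their means, Calr, Herpud1 and Xbp1 followed Hspa5. The intervals of 1 SD of Calr and Herpud1 overlapped at maintenance (455 ± 32.3 and 443 ± 200 CPM per kilobase, n = 3) and in both food-trained populations. Those of Herpud1 and Xbp1 also overlapped in both food-trained populations. In food-trained dopaminergic nuclei the per-kilobase level was 1633 ± 747 CPM per kilobase for Hspa5 (SD, n = 4), 526 ± 93.6 for Calr, 325 ± 169 for Herpud1, 127 ± 40.1 for Xbp1, 78.1 ± 31.0 for Ddit3 and 49.0 ± 17.8 for Atf6b. Atf4 (22.0 ± 5.17), Atf6 (16.1 ± 7.24), Eif2ak3 (14.7 ± 6.42) and Ern1 (1.72 ± 0.50) followed, and the intervals of 1 SD of Atf4, Atf6 and Eif2ak3 overlapped. The 4 sensor genes had lower levels per kilobase than the 3 target genes. Hspa5 alone took 0.208% to 0.811% of all counts of a dopaminergic library and 0.0842% to 0.186% of a non-dopaminergic one. Ranked by count, it was between the 4th and the 16th most counted gene of the dopaminergic libraries and between the 20th and the 60th of the non-dopaminergic ones.

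**Figure D1:**
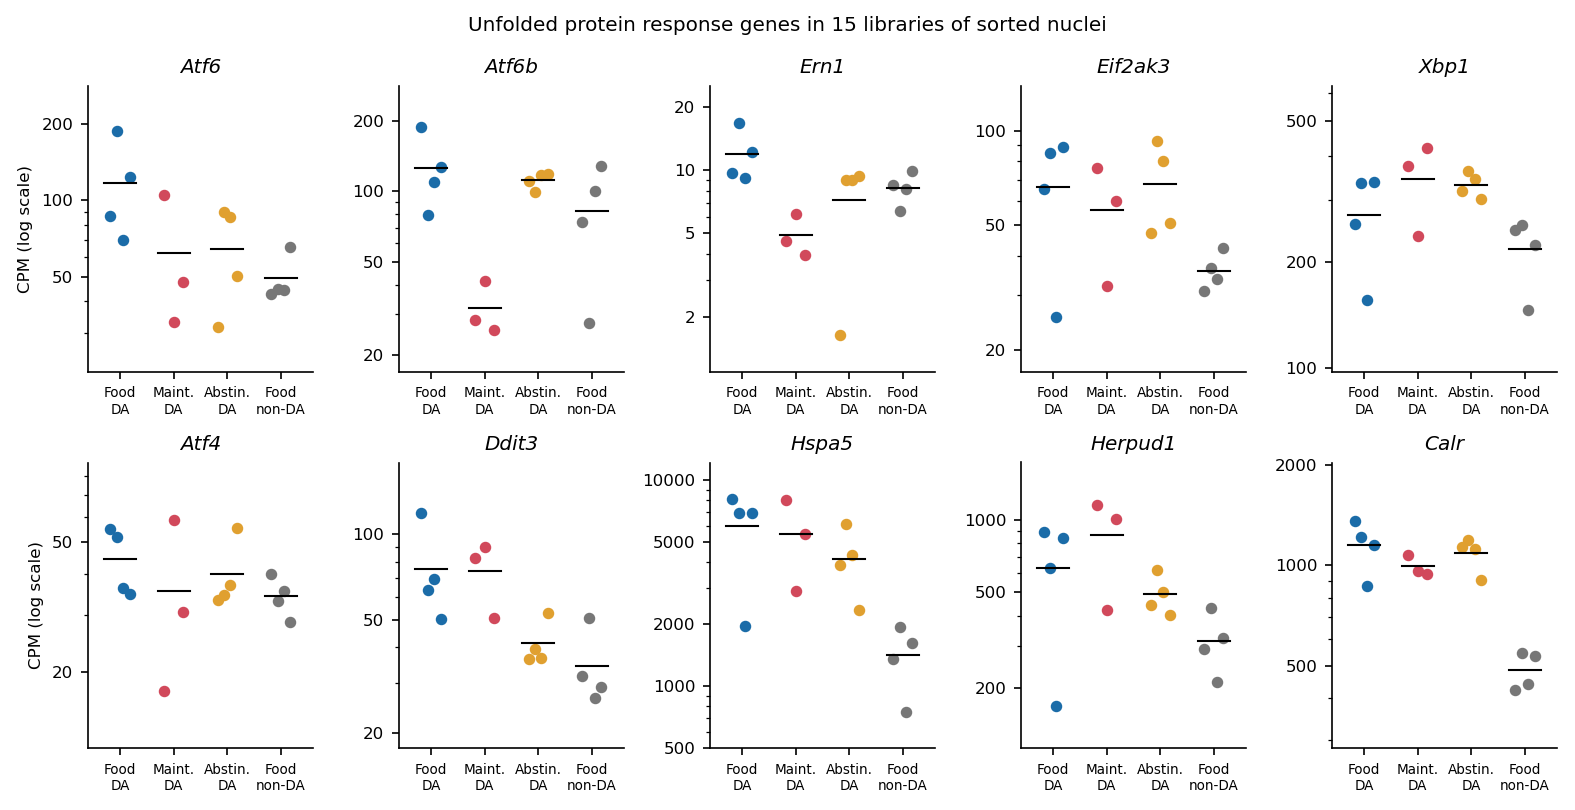
CPM of the 10 genes in each of the 15 libraries (y axis, log scale; each panel has its own range), with the 4 groups on the x axis, a point per library and a line at the mean of each group. All dopaminergic libraries lie above every non-dopaminergic library for Hspa5 and Calr, and the 3 maintenance libraries lie below the other dopaminergic ones for Atf6b.

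Hspa5, Calr and Atf6 had higher CPM in dopaminergic than in non-dopaminergic nuclei of food-trained mice, though the call of Atf6 depended on the fit. These 3 of the 10 genes passed the threshold of the edgeR quasi-likelihood test (Benjamini-Hochberg adjusted p under 0.05), all 3 higher, and 0 passed as lower. Of all 19786 genes tested, 12.8% passed in either direction, 3.63% as higher and 9.17% as lower. For the same 3 genes all dopaminergic libraries were above all non-dopaminergic ones, an order that 6.87% of genes tested had. The fitted log2 FC was above 0 for all 10 genes, with a median of 0.93, against a median of -0.21 for all genes tested. For the 9893 genes at or above the median abundance it was -0.02. Non-dopaminergic libraries held a count for 22733 to 23886 genes, and the food-trained dopaminergic ones for 14841 to 18372. In a fit that required at least 10 counts in every library, 7.51% of all genes passed as higher and 5.96% as lower. In bulk samples, a different number of cells of a type and a different amount of RNA per cell cannot be told apart, and the comparison is with a mixture of neurons and glia.

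Hspa5 encodes BiP, the main ER chaperone of the Hsp70 family and the protein that holds the sensors inactive. It was measured at 8130.3, 6967, 1969 and 6913 CPM in food-trained dopaminergic replicates 1 to 4 and at 1351, 1934, 749.7 and 1627 CPM in the non-dopaminergic ones. The groups did not overlap, but dopaminergic replicate 3 was only just above the highest non-dopaminergic library. The log2 FC was 2.06 (SE 0.48, edgeR adjusted p 0.0208), and it passed in 15 of 18 alternative fits; it did not pass without non-dopaminergic replicate 1 (adjusted p 0.0735), 3 (0.0562) or 4 (0.0564).

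Calr encodes calreticulin, a lectin chaperone that binds calcium in the ER lumen. Its values were 1356, 1219, 870.0 and 1149 CPM in the dopaminergic and 425, 546, 442 and 535 CPM in the non-dopaminergic libraries. The lowest dopaminergic library stood well above the highest non-dopaminergic one. The log2 FC was 1.21 (SE 0.21, edgeR adjusted p 0.00670), and it passed in 18 of 18 alternative fits.

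Herpud1 encodes a membrane protein of ER-associated degradation. It was measured at 889, 634, 168 and 846 CPM in the dopaminergic libraries and at 290.0, 431, 211 and 323 CPM in the non-dopaminergic ones. Replicate 3 was below all non-dopaminergic libraries, while the other 3 were above all of them. The log2 FC was 1.00 (SE 0.46, edgeR adjusted p 0.231).

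Among the sensors, Atf6 was the gene that passed. It was at 86.8, 188, 69.6 and 123 CPM in the dopaminergic libraries and at 42.8, 44.8, 44.4 and 65.2 CPM in the non-dopaminergic ones, without overlap. Its log2 FC of 1.22 (SE 0.32, edgeR adjusted p 0.0372) passed in 10 of 18 alternative fits, and not with the replicate number as a block. The adjusted p was 0.0505 with no filter beyond 1 count, 0.0654 in a fit of all 15 libraries, 0.0614 without dopaminergic replicate 2, 0.063 without replicate 4, and 0.105, 0.0912 and 0.0997 without non-dopaminergic replicates 1, 2 and 3.

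Eif2ak3, which encodes the kinase PERK, was at 65.2, 84.8, 25.6 and 89.1 CPM in dopaminergic against 31.0, 36.6, 33.7 and 42.3 CPM in non-dopaminergic libraries (log2 FC 0.86, SE 0.36, edgeR adjusted p 0.183). As for Herpud1, replicate 3 was the lowest of all 8 libraries and the other 3 were above every non-dopaminergic one. Atf6b, the paralog of Atf6, ranged from 79.0 to 187 CPM in dopaminergic and from 27.4 to 128 CPM in non-dopaminergic libraries (log2 FC 0.58, SE 0.45, edgeR adjusted p 0.501). Ern1, which encodes the sensor IRE1, ranged from 9.18 to 16.8 against 6.40 to 9.87 CPM (log2 FC 0.52, SE 0.46, edgeR adjusted p 0.581). Both pairs of ranges overlapped.

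Of the 3 transcription factor genes, Ddit3 came closest to the threshold. It was at 119, 63.8, 69.6 and 50.3 CPM in dopaminergic and at 31.6, 50.8, 26.5 and 28.9 CPM in non-dopaminergic libraries, where dopaminergic replicate 4 fell just under non-dopaminergic replicate 2. The log2 FC was 1.11 (SE 0.32, edgeR adjusted p 0.0557), and it passed in 10 of 18 alternative fits. Xbp1 ranged from 156 to 338 CPM against 146 to 254 CPM (log2 FC 0.30, SE 0.28, edgeR adjusted p 0.607), and Atf4 from 34.7 to 54.8 against 28.5 to 40.0 CPM (log2 FC 0.35, SE 0.25, edgeR adjusted p 0.452). Both pairs of ranges overlapped.

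Food-trained dopaminergic replicate 3, the library with the fewest counts, was the lowest of its group for 7 of the 10 genes. Its dopamine neuron markers summed to 8316 CPM, within the range of 6570 to 12418 CPM of its group. Without that library 5 of the 10 genes passed, now with Herpud1 (log2 FC 1.34, edgeR adjusted p 0.0122) and Eif2ak3 (1.15, edgeR adjusted p 0.0112), while the share of all genes tested that passed as higher was 5.5%. Without it and non-dopaminergic replicate 2, the library with the low GC slope, 6 passed, all 6 higher, beside 5.4% of all genes. The part of library quality in the low values of replicate 3 was not tested.

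The later stages give a further set of dopaminergic libraries to set beside the same non-dopaminergic ones. All 7 maintenance and abstinence libraries were above all 4 non-dopaminergic libraries for 2 of the 10 genes, Hspa5 (lowest 2335, against a highest of 1934 CPM) and Calr (lowest 905, against 546 CPM). Of 19786 genes, 4.84% had this order. The libraries of these stages came from mice that had taken cocaine and the non-dopaminergic ones did not, so population and treatment cannot be told apart in this count.

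Other genes of the response were examined in a list of 62 with 6 roles. Of these, 9 passed as higher in dopaminergic nuclei and 0 as lower, 48 had a fitted log2 FC above 0, and the median was 0.62. Over all 19786 genes tested, 3.63% passed as higher and 9.17% as lower, 8248 had a fitted value above 0 and the median was -0.21. The median was -0.02 for the 9893 genes at or above the median abundance. In a fit that required at least 10 counts in every library, 7.51% of all genes passed as higher and 5.96% as lower. Among 18 ER chaperones and folding enzymes, 5 passed and all 18 had a positive fitted value (median 0.89). Among 14 genes of ER-associated degradation 2 passed, among 13 targets of ATF4 and CHOP 1 passed, among 8 genes for processing of ATF6 and related ER factors 1 passed, and of 3 partners of IRE1 and 6 eIF2 kinases and phosphatase subunits 0 passed (0 and 1 at an unadjusted p under 0.05, as 24.3% of all genes tested were). With the DESeq2 test 17 of the 62 passed as higher (27.4%) and 1 as lower, where 7.61% of all genes tested passed as higher and 12% as lower.

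The 4 with the lowest p-values were Trib3, Sil1, Sel1l and Pdia4. Trib3, a pseudokinase gene induced by ATF4 and CHOP, was at 11.7, 20.5, 12.5 and 13.6 CPM in dopaminergic and at 1.36, 1.18, 1.02 and 2.92 CPM in non-dopaminergic libraries (log2 FC 3.14, SE 0.62, edgeR adjusted p 0.00895). Sil1, which encodes a nucleotide exchange factor of BiP, had a log2 FC of 0.99 (SE 0.22, edgeR adjusted p 0.0165), and Sel1l, the adaptor of a ubiquitin ligase in the ER membrane, had 0.96 (SE 0.21, edgeR adjusted p 0.0170). For these 3 genes the food-trained groups did not overlap. In the later stages of dopaminergic nuclei, Trib3 was at 0, 4.34 and 1.56 CPM at maintenance and at 7.16, 11.7, 17.8 and 4.06 CPM at abstinence. Pdia4, a protein disulfide isomerase gene, ranged from 189 to 577 against 100.4 to 192 CPM (log2 FC 1.48, SE 0.35, edgeR adjusted p 0.0215), with dopaminergic replicate 3 just under the highest non-dopaminergic library. The other 5 that passed, named after their values were seen, were Sdf2l1 (1.60), Manf (1.15), Hsp90b1 (0.96), Creb3 (0.80) and Erlec1 (0.68 on the log2 scale).

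The number of other UPR genes that passed depended on the libraries: it was 22 without dopaminergic replicate 3 (20 higher, 2 lower), and 2, 3 and 5, all higher, without non-dopaminergic replicates 1, 3 and 4. The share of all genes tested that passed as higher in these fits was 5.5%, 1.81%, 1.95% and 2.13%. The count was 6 without dopaminergic replicate 1 and 6 without dopaminergic replicate 4, beside 3.09% and 3.46% of all genes. For comparison outside the ER, 11 genes of the cytosolic and mitochondrial heat shock response were examined. Of these, 0 passed with edgeR (3 at an unadjusted p under 0.05, 27.3% against 24.3% of all genes), and 2 with DESeq2, 1 in each direction. The lowest p-values there were those of Hsf1, the gene of the heat shock factor (log2 FC -1.18, edgeR adjusted p 0.0654), and Hsp90ab1 (0.69, edgeR adjusted p 0.0942). The difference between the 2 lists was not tested.

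**Figure D2:**
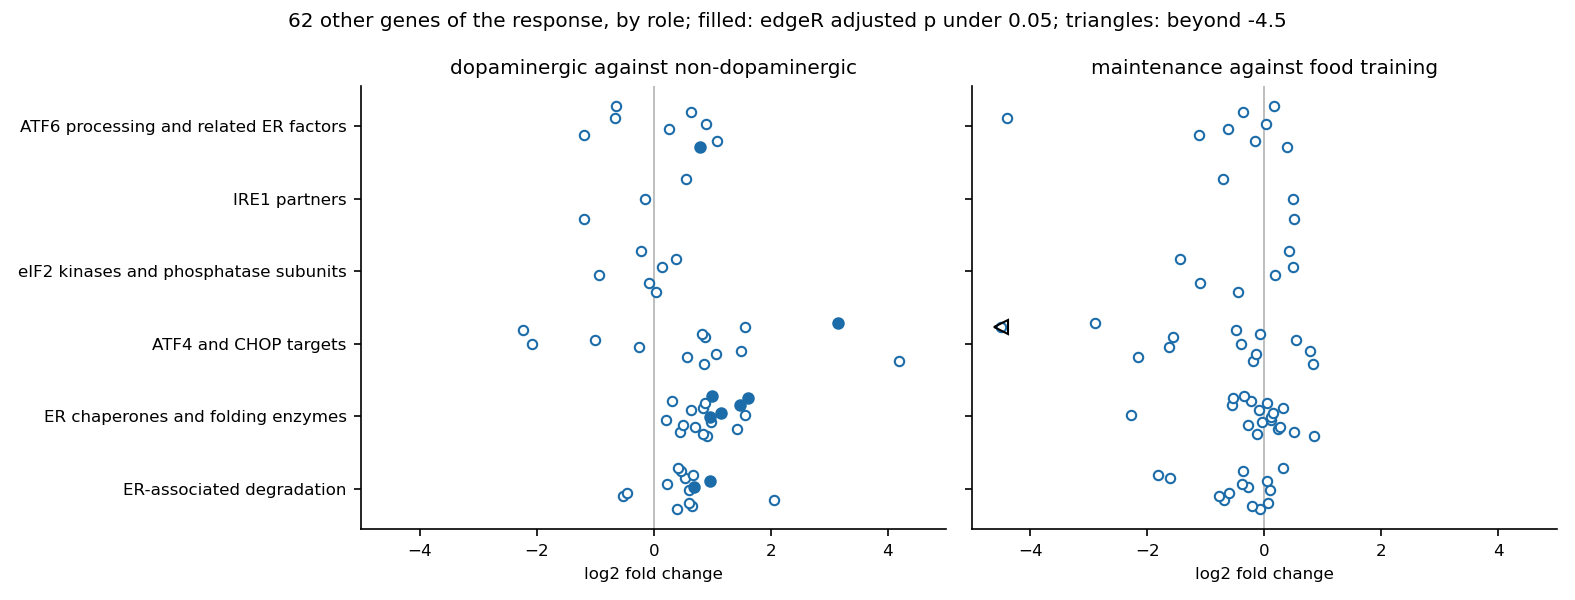
Fitted log2 FC (x axis) of 62 other UPR genes by role (y axis), for dopaminergic against non-dopaminergic nuclei (left) and for maintenance against food training in dopaminergic nuclei (right), each point being a gene, filled where the edgeR adjusted p was under 0.05. On the left 9 points are filled and all 18 chaperones lie above 0; on the right no point is filled.

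Among the 3 stages of dopaminergic nuclei, Atf6b was the single gene of the 10 that passed in any comparison. It was lower at maintenance than after food training and higher at abstinence than at maintenance. The other 9 genes did not pass at either cocaine stage, Hspa5, Calr and Herpud1 included. At abstinence against food training 0 of the 10 genes passed. The 2 comparisons with food training share those libraries, as the 2 with maintenance share theirs.

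At maintenance against food training, 1 of the 10 genes passed, as lower, where 0.126% of 19060 genes tested passed as lower and 0.131% in either direction. The 10 genes had a median log2 FC of -0.22, against -0.01 for all genes tested. Atf6b encodes an ER membrane transcription factor related to ATF6. It was at 187, 79.0, 109 and 127 CPM after food training and at 28.3, 41.6 and 25.5 CPM at maintenance, without overlap (log2 FC -1.98, SE 0.31, edgeR adjusted p 0.0268). Markers of another cell type differed between the same libraries: 10 oligodendrocyte genes summed to 1189 to 1761 CPM at maintenance and to 1788 to 2830 CPM after food training, without overlap, and to 1155 to 2043 CPM at abstinence. All 10 had counts in each of the 3 groups, and their part in the difference was not tested.

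The maintenance libraries also stood apart in a technical measure, whose part in the Atf6b difference was not tested and cannot be told apart from maintenance within the dopaminergic libraries. The 3 maintenance libraries had lower GC slopes than the other 8 dopaminergic libraries, and the Atf6b transcript had a GC content of 60.3%, the highest of the 10 genes (45.6% for Hspa5, the lowest) and higher than that of 96.1% of 16304 genes with a mean of at least 20 counts. Non-dopaminergic replicate 2, from mice without cocaine but with a low GC slope, held Atf6b at 27.4 CPM, against 73.7 to 128 CPM in the other 3 of its group. With a correction for GC content the log2 FC was -1.35 (edgeR adjusted p 0.124), and with a term for the 4 libraries of low slope in a fit of all 15 it was -0.11 (SE 0.53, edgeR adjusted p 0.999925). In that fit non-dopaminergic replicate 2 alone separates the term from maintenance. The call also did not pass with limma-voom (adjusted p 0.0574) or in an edgeR fit of all 15 libraries (0.0787). Nor did it pass without food-trained replicate 1 (edgeR adjusted p 0.0554) or 4 (0.0883), or without maintenance replicate 1 (0.104) or 3 (0.157). With the replicate number as a block, 0 of 19060 genes tested passed.

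**Figure D3:**
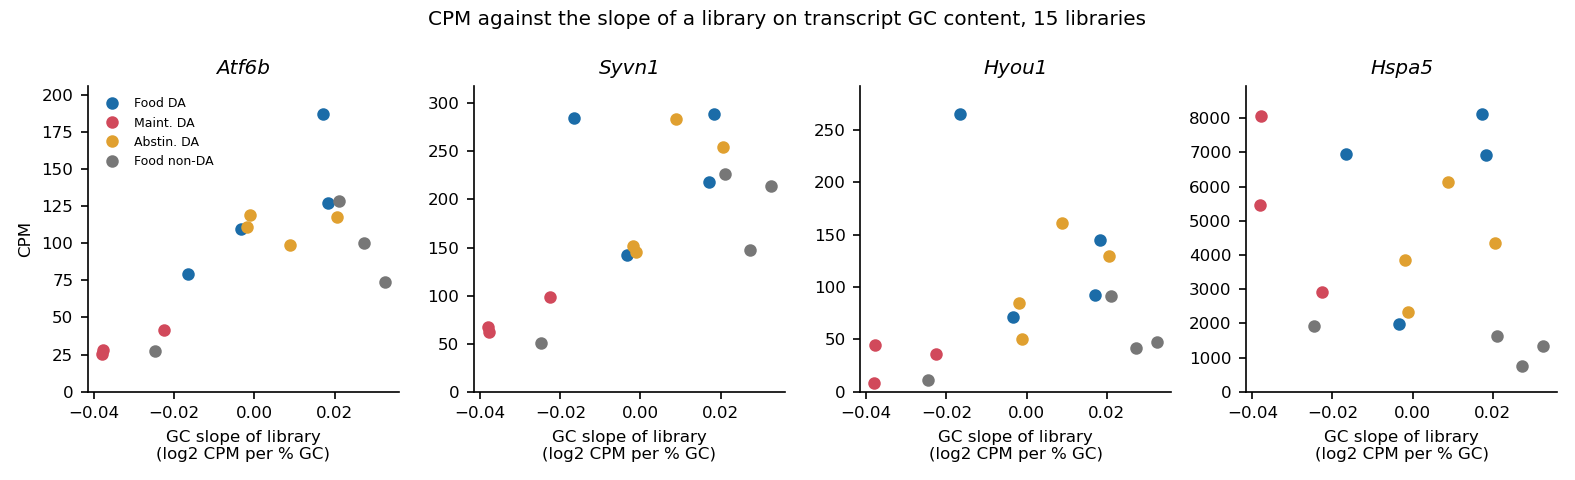
CPM (y axis) of Atf6b, Syvn1, Hyou1 and Hspa5 against the slope of each library on transcript GC content (x axis, log2 CPM per percent GC), a point per library and a colour per group. The 3 maintenance libraries and non-dopaminergic replicate 2 lie at the left, with Atf6b between 25.5 and 41.6 CPM, while Hspa5 there runs from 1934 to 8064 CPM.

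The other sensors did not pass at maintenance. Atf6 was at 105, 33.3 and 47.8 CPM (log2 FC -0.91, SE 0.48, edgeR adjusted p 0.481), where replicate 1 lay within the food-trained range of 69.6 to 188 CPM and the other 2 below it. Ern1 was at 4.62, 6.21 and 3.94 CPM, below all food-trained libraries (9.18 to 16.8 CPM), with a log2 FC of -1.28 (SE 0.81, edgeR adjusted p 0.616). With Atf6b, 2 of the 10 genes had no overlap and were lower, where 4.21% of genes tested did so. Eif2ak3 was at 76.0, 32.0 and 59.9 CPM, within the food-trained range of 25.6 to 89.1 CPM (log2 FC -0.24, SE 0.43, edgeR adjusted p 0.951).

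For the 3 targets, the maintenance libraries overlapped with those of food training. Hspa5 was at 8064, 2907 and 5471 CPM (log2 FC -0.13, SE 0.48, edgeR adjusted p 0.988) and Herpud1 at 1159, 422 and 1013 CPM (log2 FC 0.45, SE 0.47, edgeR adjusted p 0.853). Replicate 2 was the lowest of the 3 for both. Calr was at 1074, 964 and 943 CPM (log2 FC -0.21, SE 0.23, edgeR adjusted p 0.872), a narrow range inside that of food training.

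Among the transcription factor genes, Xbp1 was at 374, 236 and 419.8 CPM at maintenance (log2 FC 0.34, SE 0.29, edgeR adjusted p 0.788). Atf4 was at 17.6, 58.5 and 30.6 CPM, both the lowest and the highest values of the 15 libraries (log2 FC -0.33, SE 0.40, edgeR adjusted p 0.891). Ddit3 was at 82.5, 90.0 and 50.9 CPM (log2 FC -0.02, SE 0.33, edgeR adjusted p 1). All 3 genes overlapped with food training.

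Of the 62 other UPR genes, 0 passed at maintenance against food training with edgeR. An unadjusted p under 0.05 was found for 9 (14.5%), near the 11.6% of all genes tested, and 5 passed with DESeq2 (8.06%), all lower, where 5.2% of all genes passed and 3.92% as lower. The median log2 FC was -0.18. Syvn1, which encodes the ubiquitin ligase HRD1 of ER-associated degradation, had the lowest p-value, with 62.5, 99.0 and 67.5 CPM at maintenance against 143 to 289 CPM after food training (log2 FC -1.62, SE 0.34, edgeR adjusted p 0.0915, and 0.0477 without food-trained replicate 3). Hyou1, an ER chaperone gene, followed with 44.9, 35.6 and 8.73 CPM against 71.4 to 266 CPM (log2 FC -2.27, SE 0.60, edgeR adjusted p 0.185). Both were also low in non-dopaminergic replicate 2, Syvn1 at 50.3 CPM against 148 to 226 in the other 3 and Hyou1 at 11.2 CPM against 41.7 to 91.4. Their transcripts had GC contents of 56.6% and 52.3%, against a median of 49.6% over genes with a mean of at least 20 counts. With the term for the libraries of low GC slope, the log2 FC of Syvn1 was 0.35 and that of Hyou1 0.16 (edgeR adjusted p 0.999925 for both). In the heat shock list 0 of 10 passed with edgeR (3 at an unadjusted p under 0.05, 30% against 11.6% of all genes). With DESeq2 1 passed, as higher (10%, against 1.28% of all genes as higher). Hsp90aa1 (log2 FC 0.81, edgeR adjusted p 0.218) and Hspa8 (0.86, edgeR adjusted p 0.392) had the lowest edgeR p-values.

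At abstinence against food training, 0 of the 10 genes passed with edgeR, as 0 of 19060 genes tested (0%) did. Of the 10, 1 had an unadjusted p under 0.05, where 4.3% of all genes did, and 0 passed with DESeq2, where 0.761% did. That gene was Ddit3, at 36.3, 39.4, 36.8 and 52.9 CPM at abstinence against 50.3 to 119 CPM after food training. Replicate 4 overlapped with the lowest food-trained library and the other 3 were below it (log2 FC -0.87, SE 0.31, edgeR unadjusted p 0.0135, adjusted p 0.999974).

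The target genes at abstinence were all within the food-trained ranges. Hspa5 was at 3863, 6122, 4336 and 2335 CPM (log2 FC -0.53, SE 0.45), Herpud1 at 443, 621, 499.9 and 403 CPM (-0.37, SE 0.44) and Calr at 1139, 1189, 1120 and 905 CPM (-0.08, SE 0.21). For each of the 3 the lowest abstinence library was above food-trained replicate 3 and the highest was below food-trained replicate 1. Atf6 was at 31.6, 89.7, 85.8 and 50.3 CPM (-0.86, SE 0.43), with replicates 1 and 4 below all food-trained libraries. Atf6b was at 111, 98.9, 117 and 119 CPM (-0.17, SE 0.27), inside the food-trained range.

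Ern1 was at 1.64 CPM in abstinence replicate 1, from 74 counts, and at 8.95 to 9.36 CPM in the other 3 (log2 FC -0.72, SE 0.73). Eif2ak3 ran from 47.3 to 92.8 CPM (0.03, SE 0.40), Xbp1 from 301 to 361 CPM (0.29, SE 0.27) and Atf4 from 33.2 to 55.2 CPM (-0.15, SE 0.37). The edgeR adjusted p was 0.999974 for each of the 10 genes. Of the 62 other UPR genes 0 passed with edgeR, as 0 of all genes tested did. An unadjusted p under 0.05 was found for 0 (4.3% of all genes), and 0 passed with DESeq2 (0.761% of all genes). The lowest p-values were those of Rtcb, the RNA ligase that joins the Xbp1 exons (log2 FC 0.56), and Eif2ak4, an eIF2 kinase gene (0.71).

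At abstinence against maintenance, 1 of the 10 genes passed, as higher, where 0.168% of 19060 genes passed as higher and 0.178% in either direction. It was Atf6b, with 98.9 to 119 CPM against 25.5 to 41.6 CPM and no overlap, where 7.56% of genes tested were higher without overlap (log2 FC 1.81, SE 0.31, edgeR adjusted p 0.0434). As the 3 maintenance libraries are the dopaminergic ones with low GC slopes, slope and stage cannot be told apart here either. The log2 FC was 1.18 (edgeR adjusted p 0.17) with the GC correction and -0.07 (edgeR adjusted p 0.999933) with the term for the 4 libraries of low slope. Upper quartile scaling gave an edgeR adjusted p of 0.0508 and a fit of all 15 libraries 0.115. With the replicate number as a block, 2 of all genes tested passed and Atf6b did not. Of 7 fits that left out a library it passed in 1, without maintenance replicate 2, with adjusted p from 0.0328 to 0.225. The 10 genes had a median log2 FC of 0.09, against 0.05 for all genes tested.

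The next lowest p-values in this comparison were those of Ddit3 (log2 FC -0.85, SE 0.33, edgeR adjusted p 0.452) and Herpud1 (-0.82, SE 0.47, edgeR adjusted p 0.623). For Ddit3 the 2 highest maintenance libraries, at 82.5 and 90.0 CPM, were above all abstinence libraries and the third, at 50.9 CPM, was below the highest. Of the 62 other UPR genes 0 passed with edgeR, and 8 had an unadjusted p under 0.05 (12.9%, against 9.92% of all genes tested). With DESeq2 3 passed, all higher (4.84%, against 4.16% of all genes in either direction and 3.57% as higher). The lowest edgeR p-values were those of Syvn1 (1.45, edgeR adjusted p 0.143) and Hyou1 (1.84, edgeR adjusted p 0.346). In the heat shock list 0 of 10 passed with edgeR (3 at an unadjusted p under 0.05, 30% against 9.92% of all genes). With DESeq2 2 passed, both lower (20%, against 0.582% of all genes as lower). Hsp90aa1, a cytosolic chaperone gene, was at 188 to 225 CPM against 384 to 487 CPM (log2 FC -1.11, edgeR adjusted p 0.0801), and Hsp90ab1 had -0.79 (edgeR adjusted p 0.387).

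**Figure D4:**
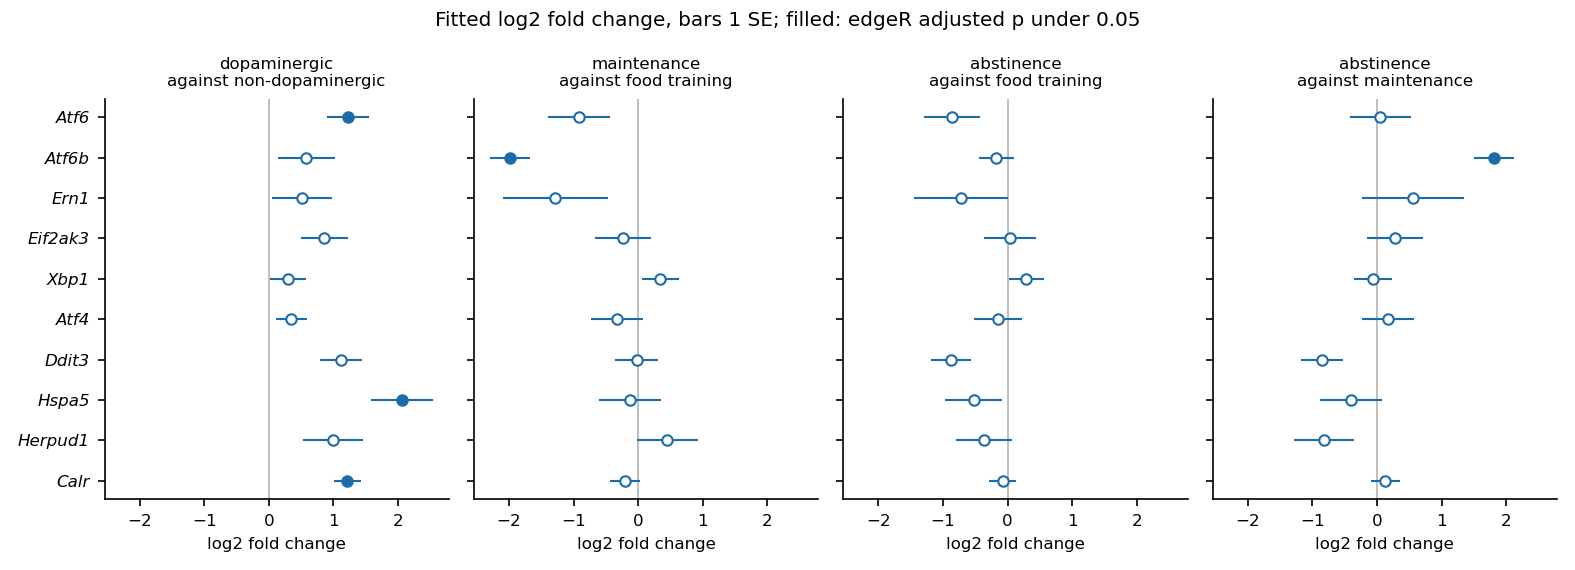
Fitted log2 FC of the 10 genes (x axis; bars are 1 SE) in the 4 comparisons, with filled points where the edgeR adjusted p was under 0.05. Atf6, Hspa5 and Calr are filled between populations, Atf6b is filled in the 2 comparisons with maintenance libraries on opposite sides of 0, and no point is filled for abstinence against food training.

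Over the 11 dopaminergic libraries, some of the 10 genes varied together from library to library. Pearson's r of log2 CPM with Hspa5 was 0.892 for Herpud1, 0.823 for Eif2ak3, 0.799 for Calr, 0.641 for Xbp1 and 0.611 for Atf6. It was 0.138 for Ddit3, 0.117 for Ern1, -0.113 for Atf6b and -0.336 for Atf4. Among 14147 genes ranked by r, Herpud1 was at rank 35, Eif2ak3 at 187 and Calr at 261. The highest values were those of Gde1 (0.968), Slc3a2 (0.966), Slc6a15 (0.953), Drd5 (0.942) and Slc35a5 (0.939). In that order they encode a phosphodiesterase, a subunit of amino acid transporters, a neutral amino acid transporter, a dopamine receptor and a nucleotide sugar transporter family member. Slc3a2 is also in the list of 62 other UPR genes, as a target of ATF4 and CHOP. Drd5 had 0 counts in food-trained replicate 3, 14 in maintenance replicate 2 and 17 in abstinence replicate 4, so its r rests partly on counts near 0. These correlations are descriptions, since the points share their libraries, stages and scaling factors.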

How the data were processed

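The 15 samples of sorted nuclei were profiled by RNA sequencing. The authors deposited whole-number counts per gene for 35976 symbols; the submitters' processing notes name Trim Galore 0.6.7, cutadapt 1.18, STAR 2.7.10a, StringTie 2.1.5 and DESeq2 1.38.3 and the builds mm10 and GRCm38, without roles or settings. Per the labels' protocols, RNA input was made equal and a low-input cDNA kit was used; amplified reads without molecular identifiers are not independent molecules, so precision from counts covers counting error only. A second deposited table, of 10 dopaminergic columns (all but food-trained replicate 3), differed from the first in 0 cells and was not used. Nothing in the labels says that the samples of a group are independent beyond their pools of mice, and p-values measure the spread between these samples.

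The members and all lists were chosen with earlier results of these data known. Counts were tested in R 4.3.3 with edgeR 4.0.16 (filterByExpr, TMM factors, quasi-likelihood F-test, two-sided, Benjamini-Hochberg adjustment over all genes tested, threshold 0.05). The 3 stages were contrasts in a fit of 11 dopaminergic libraries, and the populations were compared in the 8 food-trained libraries. Intervals given as SE are the log2 fold change over the square root of F. CPM are counts scaled with TMM factors of all 15 libraries.

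The text names all 10 members. Of the other lists it names those that passed (the 4 with the lowest p where more did), or the 2 with the lowest p where none did, and the 5 genes most like Hspa5, among genes that averaged 20 counts or more and are not predicted genes or clones. GC content was that of the longest transcript in GENCODE M21, with a slope per library over 8174 genes (mean log2 CPM above 4); 9213 symbols had no GC value and took no correction. Promoters were RefSeq's (GRCm38.p6), with a sequence for 9 of the 10 members and 49 of the 62 other genes.

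Whether same-numbered samples came from the same mice is not stated, and the replicate number was used as a block only as an alternative. The other alternatives were scaling by DESeq2 size factors or the upper quartile, a filter of 1 count in all or of 10 in each library, DESeq2 1.42.0, limma-voom 3.58.1 with quality weights, a GC correction, a fit of all 15 libraries without and with a term for the 4 libraries of low GC slope, and leaving out each library. A pair of alternatives was added after the data were seen: without food-trained dopaminergic replicate 3 together with non-dopaminergic replicate 2, and the GC correction without food-trained dopaminergic replicate 3. The scripts were tested on simulated data.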

Additional observations from a re-analysis of the deposited data

Results flagged for a closer look

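Of 30 sets of 4 values (10 genes in the 3 groups of 4 samples), 3 held a value that stood far from the others, and chance gives about 1 in 20. Atf6 was at 65.2 CPM in non-dopaminergic replicate 4, against 42.8 to 44.8 CPM in the other 3 libraries. Ern1 was at 1.64 CPM in abstinence replicate 1, against 8.95 to 9.36 CPM. Atf4 was at 55.2 CPM in abstinence replicate 4, against 33.2 to 36.9 CPM.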

How the results depend on the processing

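Of 720 values of the 10 genes under an alternative, 646 kept their direction and their side of the threshold, 31 no longer passed, 14 newly passed and 29 changed sign; none of the reversals was of a value that passed, other than that of Atf6b at abstinence against maintenance (-0.067) with the low-slope term.

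Genes called at maintenance against food training (25) were 109 with at least 10 counts in every library, 992 with DESeq2, 9 with limma-voom, 12 with the GC correction, 14 with that correction and without food-trained replicate 3, and 0 with the low-slope term. The 1 member was 0 with limma-voom, both GC corrections, all 15 libraries and the low-slope term; the 0 other UPR genes were 1 with at least 10 counts and 5 with DESeq2. Genes called at abstinence against food training (0) were 145 with DESeq2. At abstinence against maintenance (34) they were 22 with upper quartile scaling, 69 with at least 10 counts, 792 with DESeq2, 13 with the GC correction, 15 with all 15 libraries and 1 with the low-slope term. The 1 member was 0 in these fits other than those with at least 10 counts and DESeq2, and DESeq2 called 3 other UPR genes. Between populations (2534) the count was 1643 with at least 10 counts (916 higher, 727 lower), 3883 with DESeq2 and 4266 with limma-voom. The 3 members were 2 with no filter beyond 1 count and 6 without food-trained dopaminergic replicate 3 and non-dopaminergic replicate 2. The 9 other UPR genes were 18 with DESeq2 and 22 without those 2 libraries. The cause was not tested.

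Leaving out a library gave 5 to 78 genes, 0 to 1 members and 0 to 1 other UPR genes at maintenance against food training, 6 to 73 genes and 0 to 1 members at abstinence against maintenance, and 1900 to 3740 genes, 1 to 5 members and 2 to 22 other UPR genes between populations.

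With the replicate number as a block, genes called were 0 and 2 in the comparisons of maintenance with food training and of abstinence with maintenance, with 0 members in each, and 775 between populations, with 2 members and 8 other UPR genes; the member no longer called was Atf6 (log2 fold change 1.13, edgeR adjusted p 0.083). Same-numbered samples of the populations correlated at 0.0211 to 0.0689, those of stages at -0.0663 to 0.0305. Samples of different numbers were not correlated, so these values do not decide whether the numbers mark pairs.

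Fold changes that did not pass also changed sign. At maintenance against food training these were Ddit3 (0.014 with upper quartile scaling, -0.20 to 0.28 leaving out a library), Herpud1 (-0.20 with the low-slope term), Hspa5 (-0.52 to 0.15), Atf4 (-0.90 to 0.0017) and Eif2ak3 (-0.53 to 0.018). At abstinence against food training they were Eif2ak3 (-0.0068 with the GC correction, -0.26 with it and without food-trained replicate 3, -0.23 to 0.21 leaving out a library), Atf6b (-0.35 to 0.081) and Calr (-0.19 to 0.010). At abstinence against maintenance they were Atf6 (-0.0025 with upper quartile scaling, -0.12 with the low-slope term, -0.22 to 0.67), Atf4 (-0.089 with the GC correction, -0.16 to 0.74), Xbp1 (0.25 with the low-slope term, -0.25 to 0.12) and Hspa5 (0.24 with that term). No scaling moved the median of all genes by over 0.1.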

Other observations

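The ER stress response element occurred in the promoter windows of 7 of the 49 other UPR genes with a sequence (Hsp90b1, Canx, Dnajc3, Creld2, Pdia6, Syvn1 and Derl3), and the C/EBP-ATF response element in 5 (Atf3, Asns, Chac1, Slc7a11 and Nupr1).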
